A study of Mus musculus with 9 samples.

Results

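Open chromatin in dendritic cells made to overexpress Pcgf6 (OE) was set against open chromatin in cells carrying mi8, the control vector of that construct. ATAC-seq, in which a transposase cuts and tags accessible DNA, was run on C57Bl/6 bone marrow cultures kept for 9 days in GM-CSF at 20 ng/mL. Retrovirus carrying a vector went in on day 2, and cells positive for CD11c and for the vector's reporter, human CD8, were taken by flow sorting. Both groups share strain, culture and sort and differ in the Pcgf6 insert, and the labels used here give no age of the mice. Each of the 2 peak lists rests on 2 libraries pooled by the submitters and was called against the same single input library, made from mi8 cells. The lists of a second pair, a Pcgf6 knockdown vector (HP109) and its own control (LMP8), serve only as a reference.

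All peaks on chromosomes 1 to 19 and X were compared, with identical intervals collapsed, and a peak that shares no base with the other list is called OE-only or mi8-only. The 2 lists merge into 174589 regions, of 194733 in the 4 lists of the series. Of these, 100810 (57.7%) had a peak in both, 68691 (39.3%) in mi8 alone and 5088 (2.91%) in OE alone. Since a vector has 1 pooled list, there is no spread between cultures, no test between the vectors was possible, and 95% intervals (exact, Clopper-Pearson) cover counting error only. In such material, fewer cells of a type and less opening per cell cannot be told apart.

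PCGF6 is the subunit that defines PRC1.6, a Polycomb repressor complex that marks a core histone with ubiquitin. The complex reaches DNA through MGA with MAX, which bind E-boxes and T-box sites, and through an E2F family repressor. It is best known for silencing germline genes, and in dendritic cells, which sense microbes, mature and present antigen, the study asks how Pcgf6 restrains activation.

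The sequences of 8 gene starts with a peak in 1 list only show the kind of DNA at issue. They are shown because a peak of that list covers part of the printed stretch and because they are genes of immune cells, of development or of odour sensing. Each line is the 200 bases before the start, 5′ to 3′ on the gene's strand, from RefSeq's GRCm38.p6 promoters. Capitals mark matches on either strand to 8 motifs: the E-box (CACGTG), E2F (TCCCGC), the T-box (GGTGTGA), the interferon response element, AP-1 (TGANTCA), PU.1 (GAGGAA), C/EBP (TTGCNNAA) and NF-kB. The interferon element and NF-kB are given by name. The NF-kB matches of Tnfrsf8 overlap each other, and the NF-kB match of Ifnb1 overlaps a PU.1 match on the other strand (TTCCTC). In all 21045 promoter entries for these genes the same stretch held the E-box in 5.87%, E2F in 19.6%, the T-box in 2.48%, the interferon element in 2.23%, AP-1 in 4.96%, PU.1 in 18.3%, C/EBP in 7.11% and NF-kB in 6.78%. Starts with a peak in mi8 and none in OE were those of Ifi44, an interferon-induced gene (chr3:151749911-151750110, minus strand), and Cxcl14, a chemokine gene (chr13:56296552-56296751, minus). The others were Tnfrsf8, which encodes the receptor CD30 (chr4:145315165-145315364, minus), Marco, a scavenger receptor gene of macrophages (chr1:120505025-120505224, minus), Lhx2, a developmental regulator (chr2:38339081-38339280, plus), and Ifnb1, the interferon beta gene (chr4:88522795-88522994, minus).
Ifi44: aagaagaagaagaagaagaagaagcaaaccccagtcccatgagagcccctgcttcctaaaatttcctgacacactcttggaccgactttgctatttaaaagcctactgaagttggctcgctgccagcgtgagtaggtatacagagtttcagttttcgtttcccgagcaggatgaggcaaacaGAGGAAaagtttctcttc
Cxcl14: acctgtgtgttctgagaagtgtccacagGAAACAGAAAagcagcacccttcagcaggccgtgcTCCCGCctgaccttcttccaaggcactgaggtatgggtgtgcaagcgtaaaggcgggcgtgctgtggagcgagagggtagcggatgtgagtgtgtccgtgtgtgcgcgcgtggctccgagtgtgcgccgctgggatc
Tnfrsf8: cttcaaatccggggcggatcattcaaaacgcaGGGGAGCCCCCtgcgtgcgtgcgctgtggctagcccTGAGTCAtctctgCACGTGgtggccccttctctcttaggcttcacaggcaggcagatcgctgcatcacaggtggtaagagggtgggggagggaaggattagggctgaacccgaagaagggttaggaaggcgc
Marco: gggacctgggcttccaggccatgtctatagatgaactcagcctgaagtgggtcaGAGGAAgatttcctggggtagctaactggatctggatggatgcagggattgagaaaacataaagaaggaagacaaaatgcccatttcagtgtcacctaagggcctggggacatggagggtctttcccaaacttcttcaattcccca
Lhx2: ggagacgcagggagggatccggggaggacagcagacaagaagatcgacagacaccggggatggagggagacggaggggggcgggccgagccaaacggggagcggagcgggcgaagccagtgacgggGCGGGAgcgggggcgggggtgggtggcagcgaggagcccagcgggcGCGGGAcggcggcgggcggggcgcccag
Ifnb1: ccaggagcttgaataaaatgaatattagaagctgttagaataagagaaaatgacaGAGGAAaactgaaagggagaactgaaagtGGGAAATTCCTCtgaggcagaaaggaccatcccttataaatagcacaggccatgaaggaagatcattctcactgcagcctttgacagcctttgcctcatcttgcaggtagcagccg
Starts with a peak in OE and none in mi8 were those of Olfr974, an olfactory receptor gene (chr9:39942062-39942261, plus), and Gm5174, a predicted gene (chr10:86655606-86655805, plus).
Olfr974: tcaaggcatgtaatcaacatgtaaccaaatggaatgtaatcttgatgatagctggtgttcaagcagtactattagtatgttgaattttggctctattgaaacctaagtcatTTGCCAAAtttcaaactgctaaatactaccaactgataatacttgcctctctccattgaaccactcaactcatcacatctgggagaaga
Gm5174: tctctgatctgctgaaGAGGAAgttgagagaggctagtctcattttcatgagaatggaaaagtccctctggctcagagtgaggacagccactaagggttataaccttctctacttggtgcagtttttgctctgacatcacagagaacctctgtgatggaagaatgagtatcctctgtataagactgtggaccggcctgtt
The peak over the printed stretch had a −log10 q, the authors' measure of how far a summit lies above the input, of 24.6 for Ifi44, 24.5 for Cxcl14, 24.2 for Tnfrsf8, 17.7 for both Marco and Lhx2 and 8.41 for Ifnb1. In OE it was 8.75 for Olfr974 and 7.58 for Gm5174. A PU.1 match stands in the stretches of Ifi44, Marco, Ifnb1 and Gm5174, and the E-box of MAX and MGA in that of Tnfrsf8 alone among the 8.

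The mi8 list held 170946 peaks over 55.9 Mb and the OE list 111488 over 35.3 Mb, and base pairs shared by both made up 0.568 of those covered by either (Jaccard index). Depth, read from the steps of the input background, was 0.997 in OE relative to mi8. The median summit pileup over all peaks of a list was 25 reads in OE and 24 in mi8, but these medians cover different sets of peaks. For peaks with a counterpart in the other list it was 26 reads in OE and 38 in mi8. Their median −log10 q was 15.6 in OE and 29.3 in mi8, so shared regions had the lower values in OE. Relative depth was 0.731 in LMP8 and 0.724 in HP109. Of the mi8 peaks, 68691 (40.2%, interval 39.95 to 40.4) had no OE counterpart, and of the OE peaks, 5088 (4.56%, interval 4.44 to 4.69) had no mi8 counterpart. The list with more peaks must lead in such a count, so these percentages are the background against which genes and families are read below.

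One-list peaks were weak and narrow in both directions. The mi8-only peaks had a median width of 155 bp, a median −log10 q of 6.23 and a median pileup of 15 reads, against 329 bp, 29.3 and 38 reads for mi8 peaks with an OE counterpart. The OE-only peaks had a median width of 130 bp, a median −log10 q of 5.05 and a pileup of 14 reads, against 236 bp, 15.6 and 26 reads for OE peaks found in mi8. The share of mi8 peaks absent from OE went from 85.5% below a −log10 q of 5 to 39.0% between 10 and 20, 9.66% between 20 and 40 and 0.393% from 40 up. For OE peaks the same bins gave 17.2%, 1.66%, 0.216% and 1 peak of 23517. Strong peaks were thus almost all in both lists, and 150 mi8 peaks of −log10 q 40 or more lacked an OE counterpart.

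Position mattered less than strength. To compare positions, each peak was given the absence rate of all peaks of its list with like −log10 q (20 bins), and the mean of these rates is called the same-strength rate. Peaks at gene starts (within 1000 bp) were absent in 25.9% of mi8 cases (same-strength rate 28.1%) and 1.76% of OE cases (3.49%). Inside gene spans away from starts the shares were 42.3% (42.5%) and 5.26% (4.86%). Farther than 100 kb from any protein-coding gene they were 44.0% (42.5%) and 6.21% (4.72%). Start peaks therefore were one-list peaks less often than their strength gave, and gene-desert peaks more often, in both lists and by a few percentage points at most.

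**Figure D1:**
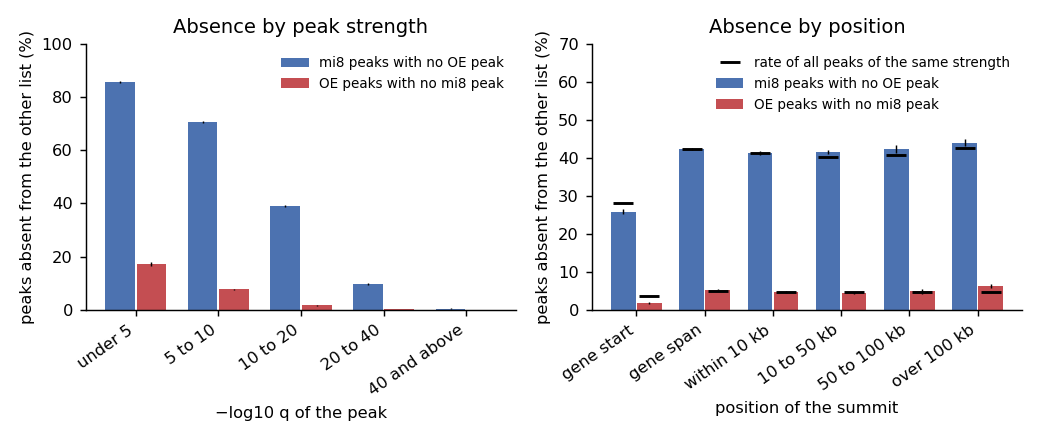
Bars give the percentage of mi8 peaks without an OE peak (blue) and of OE peaks without a mi8 peak (red), by −log10 q (left) and by position of the summit (right, with the same-strength rate as a black line); thin error bars are exact 95% intervals. Absence goes from 85.5% to 0.393% of mi8 peaks with strength, while positions beyond the gene start lie between 41.3% and 44.0%.

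The other pair of vectors, which took no part in choosing the peaks, gave different shares in the 2 directions, all 4 lists having the same input. Of the mi8-only peaks, 64.3% overlapped a peak in HP109 and 48.9% one in LMP8, and 28.0% were in neither. All 150 mi8-only peaks of −log10 q 40 or more were in both, and between 20 and 40 the shares were 99.3% in HP109 and 98.5% in LMP8. A mi8 peak of 20 or more missing from OE was thus nearly always present under the other control and under the knockdown. The OE-only peaks overlapped HP109 in 47.0% and LMP8 in 16.2%, and 48.8% were in neither, against 97.6%, 92.9% and 1.53% for OE peaks found in mi8. At a −log10 q of 10 to 20 the OE-only peaks were in HP109 in 63.0% and in LMP8 in 15.9%, while OE peaks also in mi8 were in them in 99.01% and 95.2%. In number, 1778 OE-only peaks were in HP109 and not in LMP8, and 214 in LMP8 and not in HP109. HP109 is the longer of these lists at like depth (170077 peaks against 140716), and among mi8-only peaks too HP109 alone held more than LMP8 alone, 15861 against 5282.

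**Figure D2:**
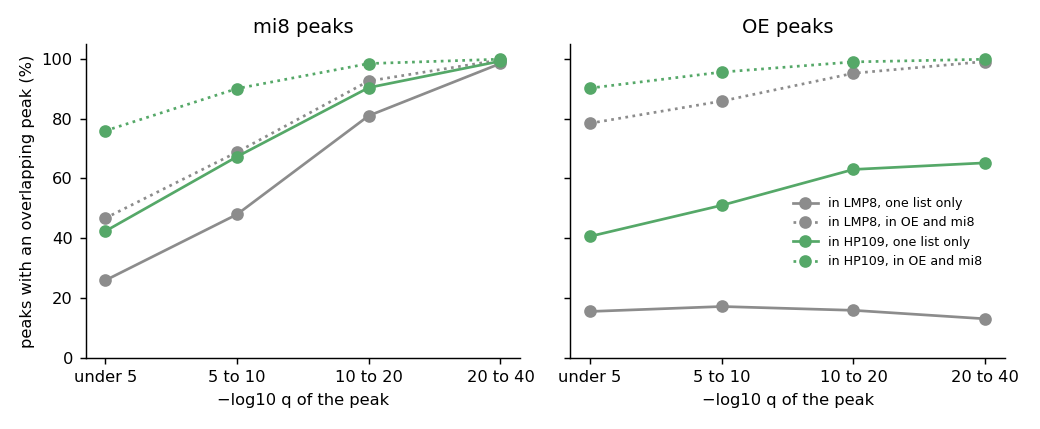
Percentage of mi8 peaks (left) and OE peaks (right) that overlap a peak of LMP8 (grey) or HP109 (green), by −log10 q up to 40; solid lines are peaks of 1 list only and dotted lines peaks in both OE and mi8. For mi8-only peaks the lines climb to 98.5% and 99.3%, while OE-only peaks stay between 13.04% and 17.2% in LMP8 and between 40.6% and 65.2% in HP109.

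At gene starts too, peaks in mi8 alone outnumbered those in OE alone. Of 21631 protein-coding genes, 12621 had a start peak in both lists, 1303 (6.02%) had one in mi8 with no counterpart in OE, and 29 (0.134%) had one in OE with no counterpart in mi8. Where no start is given on this build (4357 genes), either end of the gene was used. The start peaks in mi8 alone were weak, with a median −log10 q of 7.36 against 70.1 for starts in both. LMP8 and HP109 both had a peak at 746 of the 1303 (57.3%), neither had one at 226 (17.3%), HP109 alone had one at 244 and LMP8 alone at 87.

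The strongest start peaks of mi8 without an OE counterpart belonged to genes of several kinds. Values of LMP8 and HP109 at a start are those of their strongest peak in the same start window, which need not overlap the named peak. Mlf1, a myeloid leukaemia factor gene, had a peak at chr3:67373921-67374260 with −log10 q 50.1 in mi8, 22.2 in LMP8 and 52.6 in HP109, and none in OE. Zfp2, a zinc finger gene, had 41.4 in mi8, 19.6 in LMP8 and 21.4 in HP109, and the predicted gene Gm40011 had 38.9, 30.5 and 28.7. Ccl7, a chemokine that attracts monocytes, had 36.8 in mi8, 27.0 in LMP8 and 22.7 in HP109 at chr11:82045415-82045913. Dlx4, a homeobox gene, had 36.6, 21.1 and 32.1 in that order, and Lect2, a secreted chemotactic factor gene, 35.3, 11.2 and 17.5. Ifi44 had 33.3 in mi8 at chr3:151748566-151749052, just inside the gene, 11.4 in LMP8 and no peak in HP109 or OE. Rims3 (33.1), Nkpd1 (32.8) and Lyl1, a haematopoietic transcription factor gene (31.2), completed the first 10, each with a peak in LMP8 and HP109. Of these 10 genes, 9 had a peak in the start window in both reference lists, and OE was the list without one.

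Starts with a peak in OE and none in mi8 had lower values. The strongest were 1700015G11Rik at 20.5, absent from LMP8 and HP109 too, and Klk1b8, a kallikrein protease gene, at 16.6 in OE and 12.3 in HP109 (chr7:43950914-43951177). Next came the odour receptor gene Olfr974 at 8.75 and the relaxin receptor gene Rxfp3 at 8.04, both with a peak in HP109, and Gm5174 at 7.58. Best3 and Olfr78 (7.14 each), the galectin gene Lgals12 (6.71), Gm13306 (6.26) and Ankmy1 (5.93) completed the first 10. Of all 29, LMP8 and HP109 both had a peak at 10, neither at 10, HP109 alone at 8 and LMP8 alone at 1.

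Among the 385 genes of 20 lists of pathways and cell types, 297 had a start peak in both lists, 27 (7.01%) in mi8 only and 0 in OE only, close to the 6.02% and 0.134% of all genes. Cytokine and chemokine genes among the 27 were Ccl7, Il27, an interleukin of activated dendritic cells (24.0 in mi8, 11.5 in LMP8, 15.02 in HP109), Il12a, a subunit of interleukin 12 (7.68, 8.89 and 9.96), Ifnb1 (8.41, 7.65 and 9.69), and Ccl5 (11.3, in mi8 alone). Antigen presentation was represented by Ciita, the activator of MHC class II genes (16.9 in mi8, 7.57 in LMP8, 22.0 in HP109), and H2-Q10, a class I gene (19.3 and 10.3 in mi8 and LMP8). Costimulation and maturation contributed the ligand gene Cd70 (6.61), Slamf1 (4.92) and Ccr7, the receptor that leads mature cells to lymph nodes (4.76 in mi8 alone). Developmental regulators that Polycomb complexes silence in most tissues were Dlx4, Lhx2 (17.7), Foxa2 (11.8), Hoxd13 (5.24) and Pax3 (4.92). That makes 5 of the 12 genes of that list with any start peak, a share that was 9.30% over all 14004 genes with one. These start shares were not matched for peak strength. Of all mi8 peaks whose closest gene, up to 100 kb away, was on that list, 54.4% were absent from OE. The interval (45.3 to 63.3) held the same-strength rate of 56.9%, so these peaks were not absent more often than their strength gave. The ubiquitous gene Ywhaz (3.69, at a gene end) also had a start peak in mi8 only. So did Hbb-bt (8.43), Itga2b (6.61), Pdgfra (5.99) and Cdh5 (2.64) among markers of other lineages. Most of these −log10 q values were under 20, a range in which at least 39.0% of mi8 peaks in each bin lacked an OE counterpart.

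Start peaks of the labelled cell type were there in both lists. Of 15 dendritic cell markers, 15 had a start peak in mi8 and 12 in OE, among them Itgax, Flt3, H2-Aa, Cd74, Irf4, Irf8 and Batf3. The 3 in mi8 alone were Ciita, Ccr7 and Zbtb46, a transcription factor gene of conventional dendritic cells, whose peak had a −log10 q of 3.4. Macrophage markers gave 9 of 9 in mi8 and 8 in OE, with Marco in mi8 alone. Granulocyte and mast cell markers gave 4 of 13 in mi8 and 2 in OE (Ctsg, 11.3, and Kit, 5.58, in mi8 alone), with none at Mpo, Elane, Prtn3 and Cpa3 in either list. Lymphoid markers gave 3 of 8 and 1, with Ms4a1 (18.8) among those in mi8 alone and none at Cd3e and Pax5. Erythroid and megakaryocyte markers gave 4 of 5 and 2, and stroma markers 4 of 5 and 2. Markers of each of these other cell types thus had fewer start peaks in OE than in mi8, as did the dendritic cell markers, and the part of other cells in the lists was not tested.

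Motifs at the starts were compared by state, with and without weighting for peak strength. The full 300-base promoter entries (250 before and 50 after the start) held E2F in 28.6% of 973 starts in mi8 only and in 36.3% of starts in both lists. Weighted to the mi8 strength of the first group, starts in both gave 25.1%. The E-box of MAX and MGA was in 8.12% of mi8-only starts, 10.2% of starts in both and 8.73% of these when weighted. The interferon element was in 3.19%, 3.28% and 5.48%, the T-box in 3.49%, 3.25% and 2.76%, and C/EBP in 7.91%, 8.4% and 9.6%, so for these motifs the unweighted share lay nearer to that of mi8-only starts. The Sp1 motif (GGGCGG) was in 49.7%, 64.8% and 45.1%, and a CpG ratio above 0.6, a property of CpG islands, in 42.5%, 73.0% and 42.7%, and there the weighted share lay nearer. With 22 OE-only starts in the promoter table, shares for that group rest on few genes.

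Each peak was then given to its closest gene, up to 100 kb away, and peaks were counted by gene list and family. Of all such peaks 39.9% of mi8 peaks were absent from OE and 4.45% of OE peaks from mi8. In the mi8-only direction, sets of immune genes lay on both sides of their same-strength rate. The 21 Ly6 genes, small surface proteins of leukocytes, had 39 of 67 mi8 peaks without an OE peak (58.2%, interval 45.5 to 70.2, same-strength rate 39.95%), and the 21 Ms4a genes, tetraspan membrane proteins, 49 of 95 (51.6%, interval 41.1 to 61.96, rate 37.1%). The Ifi and Ifit genes, induced by interferon, had 112 of 227 (49.3%, interval 42.7 to 56.0, rate 39.6%) and the list of interferon-stimulated genes 95 of 213 (44.6%, interval 37.8 to 51.5, rate 36.6%). Macrophage markers had 78 of 161 (48.4%, rate 40.9%), granulocyte and mast cell markers 38 of 69 (55.1%, rate 44.7%), and guanylate-binding proteins 70 of 139 (50.4%, rate 43.1%). The intervals take peaks as independent, although 54.8% of mi8-only peaks had another within 5 kb. They make no allowance for the 20 lists and 45 families looked at, so they rank sets and test none. The lower bound of the interval lay above the rate for the first 4 of these sets, which share genes in part, and the other 3 intervals held the rate. Fc receptor genes, with 61 of 136 (44.9%, interval 36.3 to 53.6), also lay above their rate of 35.6%. C-type lectin genes lay under theirs, with 82 of 287 (28.6%, interval 23.4 to 34.2, rate 41.3%), and the intervals of NF-kB and Toll-like receptor signalling (34.9%, interval 30.8 to 39.1, rate 36.4%) and antigen presentation (37.8%, interval 31.7 to 44.2, rate 38.7%) held it. With a −log10 q of 10 or more in both lists the interferon-stimulated genes had 38.4% and all genes 37.5%. PRC1.6 and Pcgf genes lay near theirs (42.1%, rate 39.3%, and 23 of 23 with a start peak in both lists; Pcgf6 itself had 5 mi8 and 3 OE peaks, which do not measure the vector's product), as did germline genes (30.9%, rate 34.1%).

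Single members show where these counts come from. Ms4a1, the gene of the B cell protein CD20, had 7 mi8 peaks and 1 OE peak nearest to it, and Ms4a8a had 11 and 5, with a mi8-only peak of −log10 q 36.5. Of the 13 Ms4a genes with any start peak, 7 had it in mi8 only, against 9.30% of all genes with a start peak, a share not matched for peak strength. Ly6a2 had 9 mi8 and 2 OE peaks and Ly6c1 8 and 3, and both had a start peak in mi8 only. Without the 2 members richest in mi8-only peaks, the shares were 64.7% in the Ly6 genes (22 of 34 peaks) and 48.1% in the Ms4a genes (37 of 77). Ifi207, a member of the interferon-induced cluster on chromosome 1, had 21 mi8 peaks, 17 of them without an OE peak, and 5 OE peaks. Ifi211 and Ifi204, its neighbours, had mi8-only peaks of −log10 q 53.7 and 51.1. Ifi44 had 11 mi8 and 2 OE peaks, and Oasl1, an antiviral gene, 7 and 1, with a mi8-only peak of 49.2. Inside the span of Oasl1, mi8 had 6 summits, all mi8-only, and OE, LMP8 and HP109 each had 0. Of these 6 mi8-only peaks, 1 overlapped a peak in HP109 and 1 a peak in LMP8, so the other control also lacked most of them. Gbp10, a guanylate-binding protein gene, had 10 mi8 peaks and no OE peak, and Cmpk2, another interferon-induced gene, 8 and 1. Without Ifi207 and Ifi47 the Ifi and Ifit genes had 44.8% of mi8 peaks absent (same-strength rate 37.2%), and without Ifih1 and Ifi44 the interferon-stimulated genes had 41.1% (35.1%). The 95% interval then held the rate for the Ly6 genes (46.5 to 80.3, rate 48.2%) and the interferon-stimulated genes (33.8 to 48.7).

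In the reverse direction, genes of hypoxia, arginine uptake and pattern recognition held OE-only peaks. The glycolysis and hypoxia list had 71 of 415 OE peaks absent from mi8 (17.1%, interval 13.6 to 21.1), against a same-strength rate of 5.79%. In the mi8 list it had 148 of 482 peaks absent from OE (30.7%, rate 37.4%). Of the 71, 59 lay at Hif1a (25 of 53), Vegfa (22 of 33) and Egln3 (12 of 37), and the rest of the list had 12 of 292 (4.11%, rate 4.98%). Arginine and amino acid transport genes had 29 of 222 (13.1%, rate 5.83%), 18 of them at Slc7a2, and 5.95% without it. These OE-only peaks were weak: with a −log10 q of 5 or more in both lists the share was 7.43% for arginine and amino acid transport and 13.2% for glycolysis and hypoxia, against 4.76% for all genes, and with 10 or more it was 3.33% and 7.89%, against 4.21%. C-type lectin genes had 33 of 230 (14.3%, interval 10.1 to 19.6, rate 5.27%), 21 of them at Clec4d, Clec4n and Clec4e, which encode receptors for fungal and mycobacterial ligands, and 7.14% without these 3. Costimulation genes had 17 of 229 (7.42%, interval 4.38 to 11.6, rate 4.38%), 12 of them at Cd274, which encodes PD-L1, and antigen presentation genes 13 of 170 (7.65%, interval 4.13 to 12.7, which holds the rate of 5.16%), 12 of them at Marchf1, a ubiquitin ligase of MHC class II. The span of Marchf1 also held 21 mi8-only peaks. In each of these 5 lists 1 to 3 genes held more than the other members together. Vomeronasal and olfactory receptor genes were spread instead, with 12 of 77 OE peaks (15.6%, rate 5.15%) over 10 genes and 23 of 253 (9.09%, rate 4.41%) over 21.

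**Figure D3:**
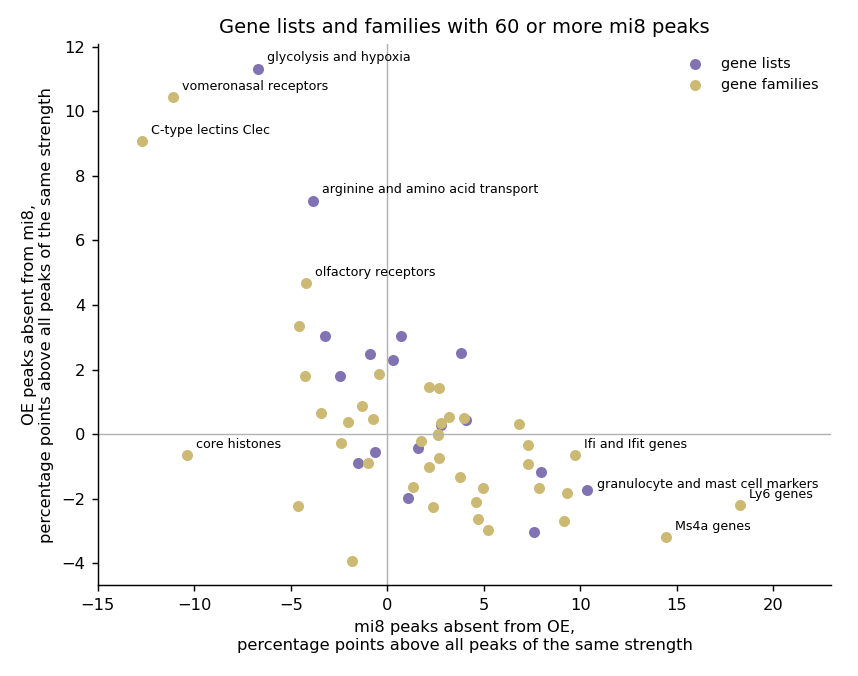
Each point is a gene list (violet) or family (yellow) with 60 or more mi8 peaks; the axes give, in percentage points, how far its share of mi8 peaks absent from OE (x) and of OE peaks absent from mi8 (y) lies from the same-strength rate. Ly6 (58.2% against 39.95%) and Ms4a genes lie far right, and glycolysis and hypoxia (17.1% against 5.79%) and C-type lectins lie high.

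Within gene spans, 11035 of 15261 genes with a summit in either list held a mi8-only peak and 2093 an OE-only peak. More mi8 than OE peaks were found in 10311 genes and the reverse in 1317. Of the 15261 genes, 46 (0.301%) held 5 or more OE-only peaks. The first 10 by that count were Hif1a, Osbpl8 and Slc7a2 (18 each), Esr1 (14), Marchf1 (12), Ccdc91, Cpm, Rabepk and Syne1 (10 each) and Mdm2 (9, tied with Vps13b). Their same-strength counts lay between 0.836 for Ccdc91 and 5.53 for Osbpl8. Of these genes, Osbpl8, Marchf1 and Syne1 held more mi8-only than OE-only peaks in the span (57, 21 and 28 mi8-only), as did Vps13b (13).

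Hif1a (chr12:73901324-73947554) encodes the oxygen-regulated transcription factor of the hypoxia response. Its span held 30 peaks in OE, 14 in mi8, 11 in LMP8 and 15 in HP109. Of the 18 OE-only peaks in the span, 1 was in HP109 and 0 in LMP8. With 20 kb on each side there were 28 OE-only peaks of 53, between 73920899 and 73960547, with −log10 q from 1.78 to 15.5 and pileups of 9 to 27 reads. They lie from inside the gene to past its far end, and its start peak was in both lists. The median background under them was 2.00 reads, that of shared OE peaks there 2.15. In a 100 kb window that also holds Snapc1, 28 of 49 OE peaks were OE-only, the most of any window.

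Slc7a2 (chr8:40862341-40922070), a transporter of arginine, held 34 peaks in OE, 15 in mi8, 12 in LMP8 and 12 in HP109, and none of its 18 OE-only peaks was in either reference list. With 20 kb on each side, 23 of 46 OE peaks were OE-only, with −log10 q of 1.39 to 9.40. Vegfa (chr17:46016993-46032377), which encodes a growth factor of blood vessels, had 19 of 26 OE peaks OE-only over the same reach, up to 16.6. Egln3, an oxygen-sensing hydroxylase gene, had 10 of 28, Cd274 13 of 35 and Cdkn1a, the cell cycle inhibitor gene, 9 of 16 (up to 13.5). At Egln3 5 of 20 mi8 peaks over that reach were mi8-only. The span of Egln3 alone held 12 peaks in OE and 12 in mi8, of which 1 was OE-only and 5 mi8-only. The span of Cdkn1a alone held 7 peaks in OE and 3 in mi8, and that of Fzr1, an activator of the anaphase-promoting complex, 10 and 3. With 20 kb on each side of Fzr1, 9 of 25 OE peaks were OE-only and 7 of 23 mi8 peaks mi8-only. Their median −log10 q was 3.88 and 10.1. Mdm2, which encodes the ubiquitin ligase of p53, had 20 of 40 with the same 20 kb, up to 24.3, and 2 of these 20 were in LMP8. The span of Mdm2 held 20 peaks in OE, 15 in mi8, 18 in LMP8 and 20 in HP109, so both reference lists lay nearer to OE there. At Vegfa 3 of the OE-only peaks were in HP109, at Mdm2 5, at Cd274 2 and at Egln3, Cdkn1a and Fzr1 none.

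OE-only peaks were also counted in windows of 100 kb, whatever genes these hold. The window of Malat1 and Neat1, 2 long noncoding RNA genes (chromosome 19, 5800001 to 5900000), held 26 OE-only peaks of 59 (same-strength count 4.497), 11 of them in HP109. The Clec4n, Clec4d and Clec4e window on chromosome 6 held 21 of 64, of which 15 were in HP109 and 4 in LMP8. Windows of Fermt2 and Ddhd1 and of Jak2 and Cd274 held 14 each. Of OE-only peaks, 17.9% had another OE-only peak within 5 kb, against 5.23% of shared OE peaks, and 6.21% against 0.238% had 3 or more. For mi8-only peaks the share with a mi8-only neighbour, 54.8%, was near that of shared mi8 peaks, 54.4%. Most OE-only peaks were nevertheless scattered: the 5088 fell in 3745 windows of 100 kb, and 486 of them lay in the 54 windows with 5 or more.

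**Figure D4:**
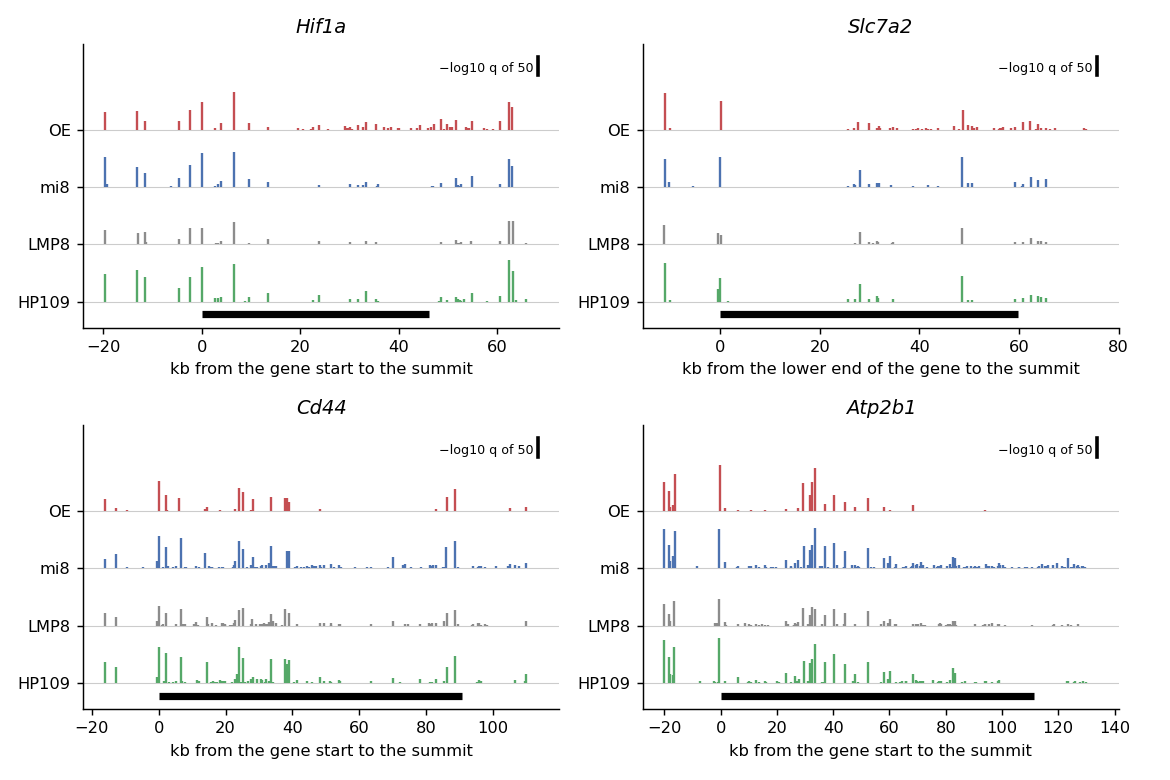
Summits of the 4 lists by distance from the gene start (for Slc7a2, whose strand is not in the table used, from its lower end), with height proportional to −log10 q and the gene as a black bar. At Hif1a and Slc7a2 the OE track has 30 and 34 summits in the span against 14 and 15 in mi8, and at Cd44 and Atp2b1 it has 20 and 20 against 80 and 103.

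The mi8-only direction had its own dense loci. Atp2b1 (chr10:98914630-99026143), which encodes a calcium pump of the plasma membrane, held 103 peaks in mi8, 20 in OE, 65 in LMP8 and 66 in HP109. All 20 OE peaks were shared, and 83 mi8 peaks had no OE counterpart (same-strength count 66.9), of which 33 were in HP109 and 31 in LMP8. Cd44 (chr2:102811141-102901669), the hyaluronan receptor of migrating leukocytes, held 80 in mi8, 20 in OE, 61 in LMP8 and 63 in HP109, with 63 mi8-only (same-strength count 51.5). Lpp (63), Foxp1 (61), Zeb2 (58), Osbpl8 (57), Pde4d (53), Etv6 (50), Creb5 (49) and Arhgap26 (48) completed the first 10. Zeb2, a transcription factor gene of myeloid cells, had fewer than its same-strength count of 75.7, so long spans with many weak peaks fill part of this order. Etv6, a haematopoietic repressor gene, had 59 OE and 108 mi8 peaks and no OE-only peak.

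Among genes with 10 or more mi8 peaks in the span, Glp2r, a peptide hormone receptor gene, had the largest share absent from OE, 18 of 19 mi8 peaks. Tcof1, a nucleolar factor gene, had 25 of 27 absent and Ifi207 13 of 15. Lgals3, which encodes galectin-3, had 14 of 17, Il1rn, which encodes the interleukin 1 receptor antagonist, 8 of 10, and Atf3, a stress-induced repressor gene, 14 of 18. Same-strength counts were 13.8 for Glp2r, 19.8 for Tcof1, 8.40 for Ifi207, 10.5 for Lgals3, 5.28 for Il1rn and 11.5 for Atf3. The reference lists differed by gene: at Tcof1 19 of the 25 were in HP109 and 6 in LMP8, and at Atf3 13 and 10 of the 14. At Ifi207 2 of the 13 were in HP109 and 10 in LMP8, at Glp2r 5 and 6 of the 18, at Lgals3 5 and 3 of the 14 and at Il1rn 4 and 5 of the 8.

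**Figure D5:**
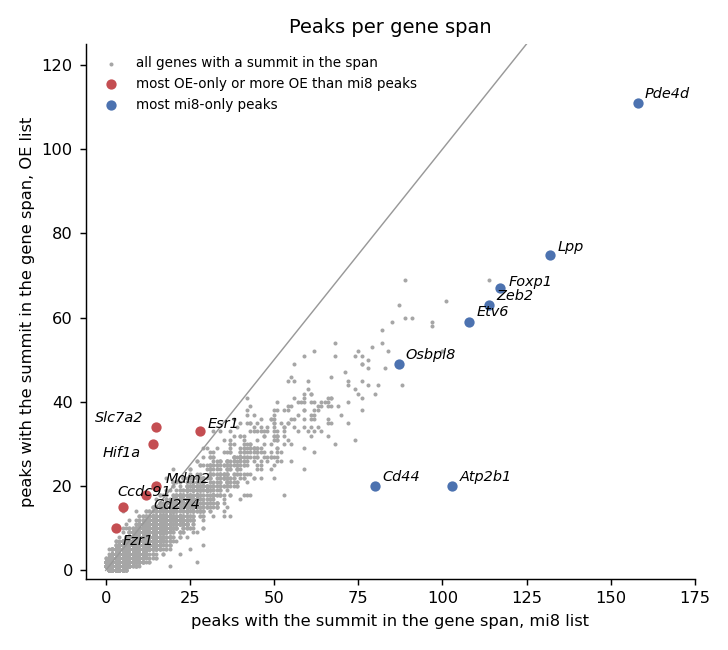
Peaks with the summit inside each gene span in mi8 (x) and OE (y); grey points are all 15261 genes and the line marks equal numbers. Most genes lie under the line, Hif1a (30 against 14) and Slc7a2 (34 against 15) above it, and Atp2b1 (20 against 103) and Cd44 (20 against 80) far under the bulk.

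Distal regions, more than 10 kb from any protein-coding gene, behaved much like nearer ones. In mi8, 19293 of 45611 distal peaks (42.3%, interval 41.8 to 42.8) lacked an OE counterpart, and in OE 1404 of 28340 (4.95%, interval 4.70 to 5.21) lacked a mi8 counterpart, with same-strength rates of 40.9% and 4.60%. Of the distal mi8-only peaks 63.1% were in HP109 and 48.6% in LMP8. The strongest lay 12.2 kb from Emp1 (chr6:135350136-135350563), with −log10 q 68.8 in mi8, 26.02 in LMP8 and 44.0 in HP109. Next were peaks 17.7 kb from Coq2 (65.3, 27.0 and 11.9) and 42.3 kb from Plau, the urokinase gene (58.4, 42.1 and 52.6). Peaks near Arf6 (56.6) and Lrrc28 (56.0) followed, also present in both reference lists.

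Distal OE-only peaks were fewer and less often seen elsewhere. The strongest lay 82.8 kb from Tox3 (chr8:90431689-90431894), with 44.5 in OE, 7.12 in LMP8 and 9.96 in HP109, and it is the only OE-only peak of 40 or more. Those 127 kb from Grpr on X (32.1), 82.2 kb from Eif3h (30.1) and 54.95 kb from Lrrc3b (28.9) had a peak in HP109 of 11.6, 7.62 and 20.9 and none in LMP8. One 97.0 kb from Mfap3l (24.0) had none in either. Of these first 5, the one near Tox3 was thus present in LMP8 and the others in neither control vector.

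A small group of OE-only peaks stood over high input. Of 208 OE peaks with a local background of 16 reads or more, 142 (68.3%, interval 61.5 to 74.5) were absent from mi8, against a same-strength rate of 11.4%. HP109 had a peak at 104 of the 142 and LMP8 at 0, and mi8 had 80 peaks over such background in all, of which 13 were absent from OE. They gathered at the lowest listed positions of chromosome 9 (3000001 to 3100000, 11 peaks), at chromosome 2 near 98600001 (6 peaks), at chromosome 11 near 3100001 (9 peaks) and along the start of chromosome 10. In the window on chromosome 9 OE had 12 peaks, HP109 14 and mi8 and LMP8 0. Chromosome 10 had the largest OE-only share, 6.79% of its OE peaks (same-strength rate 4.86%), and Esr1, Syne1 and Sfi1, whose spans reach into such windows, are among the genes with many OE-only peaks. Without peaks over such background 4.45% of OE peaks and 4.65% of distal OE peaks were absent from mi8. The background under OE-only peaks at Hif1a, Slc7a2, Cd274 and the Clec4 genes was between 2.00 and 2.15 reads at the median. It was higher at Egln3 (2.26), Mdm2 (2.55), Vegfa (2.87), Fzr1 (3.16) and Cdkn1a (3.59).

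Of 1005 miRNA hairpins, 205 had a peak within 1000 bp in both lists, 67 (6.67%) in mi8 only and 1 in OE only, Mir6380. The mature miRNAs of 3 loci are shown because they include a shared seed and a cluster, with the seed, bases 2 to 8, in capitals. In Mir29a and Mir29b-1, 2 hairpins of 1 cluster on chromosome 6, the strands with the seed AGCACCA share it, and 1 peak (−log10 q 15.1 in mi8, 11.1 in LMP8, 5.37 in HP109) lies within reach of both. Mir192 and Mir194-2 likewise share 1 peak on chromosome 19 (12.9, 7.28 and 6.73), and Mir141 had one of its own on chromosome 6 (17.6, 6.70 and 12.7).
mmu-miR-29a-3p: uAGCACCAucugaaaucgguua
mmu-miR-29b-3p: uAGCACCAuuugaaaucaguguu
mmu-miR-192-5p: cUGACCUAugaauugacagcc
mmu-miR-194-5p: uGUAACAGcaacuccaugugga
mmu-miR-141-3p: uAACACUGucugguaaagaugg
The highest was Mir7039 (23.7 in mi8, 11.4 in LMP8, 17.4 in HP109), and Mir9-3 had 15.6 in mi8. The share of hairpins in this state is near that of protein-coding starts.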

How the data were processed

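The labels attach 1 peak list to both libraries of a vector; 4 libraries stand behind the 2 lists compared, of 9 in the series. Per the submitters' processing notes, BWA, Picard and MACS2 were used with build mm10. The sources used here do not state versions, thresholds or how libraries were pooled and downsampled. The score deposited by the authors was not used further. As deposited, fold is a ratio of summit pileup to local background, and the authors give −log10 p, and −log10 q adjusted over the list, for the summit above that background. These are the authors' own values and serve only to describe, rank or filter peaks within a list. Summit pileup and background were recovered from fold, taken as (pileup + 1) over (background + 1), and the Poisson p; for 100% of peaks a whole-number pileup gave the deposited −log10 p to within 0.001.

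Peaks on chromosomes 1 to 19 and X were kept (111488 of 111513 rows for OE, 170946 of 170980 for mi8), taking the strongest summit of an interval. A counterpart is an overlap of at least 1 bp. Genes, starts and sequences are RefSeq's, GRCm38.p6; exons were not used here. A start peak lies within 1000 bp of a start, and a one-list start has no peak of the other list in the window or under its peaks. Same-strength rates use 20 bins of −log10 q, describe these lists and are no test. Scripts, run in Python 3.11.15 with pandas 2.3.3, numpy 2.4.6 and scipy 1.17.1, were tested on simulated data. The labels do not say whether the libraries came from separate cultures.

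The comparison, the 20 gene lists (385 of 389 genes found) and the 45 families were chosen with earlier results of these data known. Genes were named by rule: the 10 strongest one-list starts and the 10 spans with most one-list peaks in each direction, list genes with a one-list start, the 5 strongest distal peaks, and up to 4 members a set by strongest one-list peak. Cdkn1a, Fzr1, Vegfa, Egln3, Cd274, the genes of the largest absent shares, the noncoding RNA window, the miRNAs and the high-background windows fall outside it and were chosen after their values were seen, as were the members left out of a set and the printed promoters. Lower −log10 q limits, equal peak numbers, other overlaps, windows and distances were tried as alternatives. A few genes that the rule or the counts would name are not reported here.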

Additional observations from a re-analysis of the deposited data

How the results depend on the processing

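No paired analysis was possible because each vector has 1 pooled list, and for the same reason no library could be left out. Keeping an equal number of peaks in each list (the 111488 strongest) changed most. The share of mi8 peaks absent from OE was then 19.4% in place of 40.2% and that of OE peaks 15.1% in place of 4.56%, and distal shares were 22.4% and 16.1% in place of 42.3% and 4.95%. Start counts became 516 and 200 in place of 1303 and 29, genes with more OE than mi8 peaks 4860 (4023 the reverse) in place of 1317 (10311), and OE-only peaks 43.8% of one-list peaks in place of 6.90%. The difference of OE minus mi8 peaks in the span turned from -38 to 26 at Osbpl8, from -9 to 16 at Marchf1 and from -51 to 28 at Zeb2. Hif1a (23), Slc7a2 (25), Cd44 (-4) and Atp2b1 (-11) kept their sign. As reported, Cd44 had 20 OE against 80 mi8 peaks and Atp2b1 20 against 103. Most of the difference at these 2 loci was thus gone with equal peak numbers. By construction this setting drops the weaker mi8 peaks.

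With a −log10 q of 5 or more in both lists the mi8 and OE shares were 36.8% and 4.95%, distal 39.4% and 5.71%, and with 10 or more 37.8%, 4.32% and 41.5% for distal mi8. An overlap of at least 50% of the peak gave 47.2% and 5.54%, distal 49.2% and 5.87%, and any peak within 500 bp 31.7% and 3.41%, distal 35.3% and 4.17%. Start windows of 500 bp gave 17 OE-only genes. Distal shares beyond 50 kb were 43.3% and 5.6%. Leaving out peaks over a background of 16 reads or more, chosen after seeing the data, gave 4.65% for distal OE peaks. The cause of these shifts was not tested. Of mi8 peaks with a pileup of 10 to 14 reads, 83.2% lacked an OE counterpart. Gene families were not recomputed under these settings.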
